A study of Mus musculus with 8 samples.

Results

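The tissue kallikreins of the epidermis and Spink5, the gene of their inhibitor, were followed in RNA sequencing of sorted mouse skin cells. The 10 genes were Klk5, Klk6, Klk7, Klk8, Klk9, Klk10, Klk11, Klk13, Klk14 and Spink5, taken by gene symbol from a deposited table of 32574 genes, in which each has a single row. Of these, 9 had enough reads to be tested and Klk14 did not. Tissue kallikreins are secreted serine proteases that are made as inactive precursors and cleaved into their active form outside the cell. In the upper epidermis KLK5 activates itself and other kallikreins, among them KLK7, and the active enzymes cut the desmosomal proteins that hold corneocytes together, which lets the outermost cells be shed. The Spink5 product LEKTI is processed into fragments that hold these proteases in check, and its loss causes Netherton syndrome in people and a lethal skin barrier defect in mice.

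The question of the series is what lies behind clonal growth and tissue fluidity in wounded skin, and basal cells of the epidermis were profiled with and without ablation. Its 4 groups, K14 ablation, K14 control, Lrig1 ablation and Lrig1 control, had 2 libraries each. Ablation animals are labelled with a basal lineage ablation and control animals as wild type. The sources used here do not state age, strain, time after ablation or the agents used. They also leave unsaid whether K14 and Lrig1 refer to a promoter that drives the ablation, to the cells sorted or to the cells ablated, and both words only name sets of libraries below. The labels do not say whether libraries of a group came from separate animals, so the p-values measure the spread between these libraries, which may be technical.

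The libraries held 6458636 to 11654135 reads. Values are normalised read counts, which are reads divided by a size factor for each library, and a floor of 3 reads equals 2.12 to 4.23 of them, for counting error alone. Both ablation pairs were less alike than the control pairs: a chi-square per gene between the libraries of a pair was 27.7 in K14 ablation, 1.57 in K14 control, 39.5 in Lrig1 ablation and 2.58 in Lrig1 control. The label of an epithelial cell was met, with summed basal keratinocyte markers of 90747 to 214964 and summed fibroblast markers of 85.3 to 300.1. Transcripts of other cells were present too, with sums of 80.8 to 998 for immune, 49.7 to 624 for endothelial and 194 to 345 for melanocyte markers. Transcripts of differentiated cells were also present, with summed spinous and granular markers of 32889 to 118959. Krt1 and Krt10 made most of that sum in every library. In the K14 libraries Flg stood at 2.12 to 5.91, Flg2 at 0 to 1.02 and Lor at 9.65 to 18.7. In such bulk samples fewer cells of a type and less RNA per cell cannot be told apart.

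The 9 kallikrein genes lie side by side on chromosome 7 of GRCm38, all on the plus strand, between positions 43690418 and 43851181, a span of 160.8 kb, in the order Klk14, Klk13, Klk11, Klk10, Klk9, Klk8, Klk7, Klk6 and Klk5. The antisense transcript 2310002F09Rik shares 382 exon bases with Klk8 and 287 with Klk14. It stood at 33.7 to 69.8 normalised read counts in the 8 libraries. The sources used here do not state the strand setting of the counting, so reads in those shared bases cannot be told apart from the reads of Klk8 and Klk14. Other kallikrein genes of the locus, Klk1, Klk12, Klk15 and 3 members of the Klk1b group, stayed at or below 8.49 in every library and were not tested.

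Neighbours in this cluster differed in their values, and the 250 bases before the RefSeq transcript start are printed for a gene with a large difference between populations (Klk7), one that passed the test in Lrig1 ablation (Klk8), the flattest tested member (Klk9) and one whose fitted differences had opposite signs in the ablations (Klk13), all chosen after their values were seen. The sequences are RefSeq's on GRCm38.p6, plus strand, 5′ to 3′. Their positions are chr7:43811044-43811293 for Klk7, chr7:43797327-43797576 for Klk8, chr7:43791641-43791890 for Klk9 and chr7:43712317-43712566 for Klk13. Capitals mark CACCC, a core bound by Krüppel-like factors, on either strand (GGGTG on the other), and TTAAAA.
Klk7: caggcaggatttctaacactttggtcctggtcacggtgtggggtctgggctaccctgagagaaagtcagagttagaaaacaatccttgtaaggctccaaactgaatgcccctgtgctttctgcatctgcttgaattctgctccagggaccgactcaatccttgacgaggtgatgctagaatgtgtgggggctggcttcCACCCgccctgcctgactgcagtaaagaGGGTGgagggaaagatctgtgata
Klk8: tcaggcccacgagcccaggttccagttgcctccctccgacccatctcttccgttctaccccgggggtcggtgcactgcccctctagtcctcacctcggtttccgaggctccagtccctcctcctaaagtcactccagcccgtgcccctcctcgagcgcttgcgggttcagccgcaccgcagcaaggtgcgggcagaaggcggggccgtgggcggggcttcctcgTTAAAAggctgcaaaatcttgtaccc
Klk9: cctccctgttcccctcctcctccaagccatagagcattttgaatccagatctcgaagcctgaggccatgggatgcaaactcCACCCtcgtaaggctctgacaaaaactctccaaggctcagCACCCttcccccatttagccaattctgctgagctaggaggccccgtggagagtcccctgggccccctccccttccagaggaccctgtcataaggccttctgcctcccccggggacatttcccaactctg
Klk13: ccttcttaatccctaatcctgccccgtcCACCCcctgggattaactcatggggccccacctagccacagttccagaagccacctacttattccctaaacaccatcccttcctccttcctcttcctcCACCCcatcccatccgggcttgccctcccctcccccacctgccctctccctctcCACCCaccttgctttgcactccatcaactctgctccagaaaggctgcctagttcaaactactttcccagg

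The table held 11 promoter windows for the 9 kallikreins. CACCC stood in 8 of these 11, against 52.0% of all 32851 promoter windows. The motif TTAAAA, chosen after the sequences were seen, stood in 4 of 11, those of Klk11, Klk10, Klk8 and Klk6, against 17.7% of all windows. In the Klk8 window it starts 26 bases before the transcript start. None of the 11 windows held TATAAA (the TATA box), TGANTCA (an AP-1 core), AACNNGTT (a grainyhead core) or AGGTCA (a nuclear receptor core) on either strand, and these letters stood in 12.4%, 6.75%, 3.64% and 14.02% of all windows. The window of Klk8 was the richest in G and C of those printed, at 65.2% with 18 CpG pairs, against medians of 52.4% and 6 over all promoters. A match or its absence describes these letters in this window and no more.

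In control libraries much of the cascade was more abundant in Lrig1 than in K14. Among the 9 tested members, 5 were higher in Lrig1 control than in K14 control and 0 lower, where 8.79% of the 18140 tested genes passed in either direction and 6.52% were higher. The 5 were the proteases Klk6, Klk7, Klk8 and Klk10 and the inhibitor Spink5. Klk6 met the filter on low values only in Lrig1 libraries, so its place in this count follows in part from that selection. The median log2 difference of the 9 was 1.60, beside -0.0049 over all tested genes. Both Lrig1 control libraries lay above both K14 control libraries in 8 of 9, a pattern found in 34.5% of all tested genes.

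Klk7, the chymotrypsin-like protease that cuts corneodesmosin and desmocollin, had 2019 and 2072 normalised read counts in Lrig1 control, against 43.7 and 34.5 in K14 control. The log2 difference was 5.68 ± 0.86 (SE), with an adjusted p of 0.00886 in limma. Klk6, a trypsin-like kallikrein best known from brain myelin and also made in skin, had 111 in each Lrig1 control library (rounded), against 4.06 and 0.985 in K14 control, which were 4 reads and 1 read. Its log2 difference was 5.14 ± 0.70 (limma adjusted p = 0.00623). The fitted value moved with the pseudocount, to 3.98 with 5 and 5.42 with 0.5, so its size is uncertain. In both genes the groups were far apart and each pair of Lrig1 controls nearly coincided.

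Spink5 lies apart from the kallikreins, on the plus strand of chromosome 18 between positions 43963235 and 44022501. It had 5315 and 5565 in Lrig1 control, against 337 and 286 in K14 control. The difference was 4.13 ± 0.45 on the log2 scale (limma adjusted p = 0.0040). Klk8, also called neuropsin, had 288 and 297 in Lrig1 control, against 126 and 100.4 in K14 control, and differed by 1.37 ± 0.30 (limma adjusted p = 0.0316). Klk10, a family member with a poorly defined protease activity, had 369 and 269 in Lrig1 control, against 111 and 96.5 in K14 control, with a log2 difference of 1.60 ± 0.29 (limma adjusted p = 0.0164). The fitted differences of the inhibitor and of Klk7 were larger than those of Klk8 and Klk10, a contrast between genes that was not tested.

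The remaining tested members did not pass. Klk5, the trypsin-like enzyme placed at the head of the cascade, had 312 and 292 in Lrig1 control, against 39.6 and 46.3 in K14 control (log2 difference 2.79 ± 0.89, limma adjusted p = 0.0994). Klk13 had 68.7 and 55.0 in Lrig1 control, against 30.5 and 21.7 in K14 control (1.23 ± 0.54, limma adjusted p = 0.209). For both, the control groups did not overlap. Klk11 had 293 and 254 in Lrig1 control, against 209 in each K14 control library (0.38 ± 0.26, limma adjusted p = 0.415). Klk9 was the exception in direction, with 23.3 and 24.0 in Lrig1 control, against 25.4 and 28.6 in K14 control (-0.18 ± 0.34, limma adjusted p = 0.801). Klk14, a trypsin-like activator of other kallikreins, had at most 3 reads in any library of the series.

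These calls rested on few libraries and on 1 spread per gene shared with the unlike ablation pairs. With only the 4 control libraries fitted, 8 of 9 members passed, as did 42.9% of tested genes. Without K14 control 1, Klk6 and Spink5 passed (limma adjusted p = 0.0479 each), and without K14 control 2 only Spink5 did (0.0498). Without Lrig1 control 1 or Lrig1 control 2 none passed, and the adjusted p of Spink5 was 0.0685 and 0.0827 in those fits. Upper hair follicle markers moved with these differences. Their summed level was 67239 and 70518 in Lrig1 control, against 5215 and 5317 in K14 control, and 5 of 6 were higher. Spinous and granular markers summed to 104954 and 118959 in Lrig1 control, against 68670 and 63951 in K14 control, and 6 of 9 were higher. Endothelial markers summed to 541 and 624 in Lrig1 control, against 77.2 and 59.1 in K14 control (3 of 4 higher), and inner root sheath and hair markers to 957 and 1260, against 259 and 301 (4 of 7 higher). Fibroblast markers summed to 190 and 296 in Lrig1 control, against 85.3 and 92.5 in K14 control (3 of 5 tested higher), and immune markers to 504 and 640, against 187 and 291 (2 of 4 higher). The other way, basal keratinocyte markers summed to 107216 and 116747 in Lrig1 control, against 180521 and 177686 in K14 control. Of these 7, 1 was higher and 0 lower. Sebaceous gland markers summed to 6499 and 6594 in Lrig1 control, against 12079 and 12131 in K14 control, and 0 of 5 passed. Melanocyte sums overlapped. Flg2, Krt81 and Cd207 met the filter on low values only in the Lrig1 control libraries, and Flg only in Lrig1 libraries. Their places among the markers called higher follow in part from that selection. Over all tested genes 6.52% were higher. The part of all these markers in the kallikrein and Spink5 differences was not tested.

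**Figure D1:**
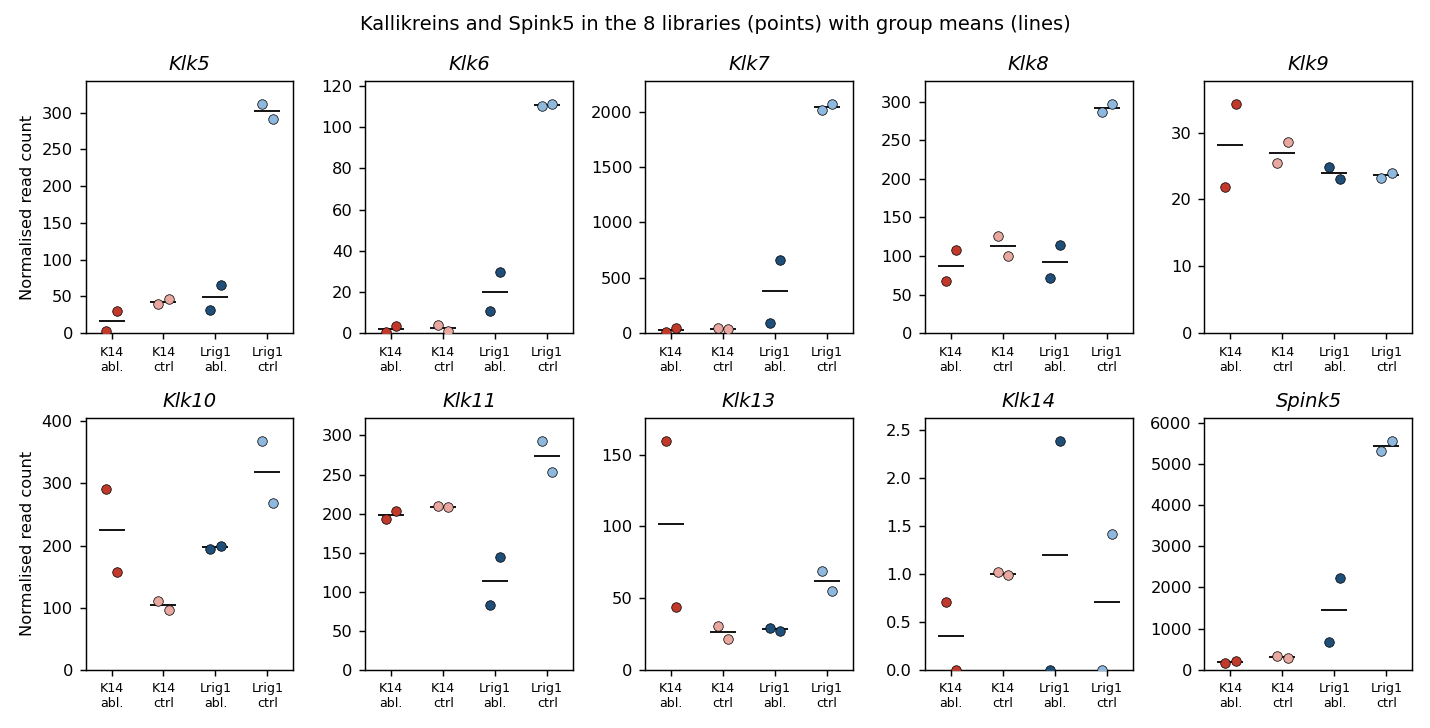
Normalised read count of each of the 10 genes (vertical axis, linear, own scale per panel) in K14 ablation, K14 control, Lrig1 ablation and Lrig1 control. Points are libraries, 2 a group, and lines are group means. Klk7 and Spink5 reach 2072 and 5565 in Lrig1 control, while Klk9 stays between 21.9 and 34.3 in all 8 libraries.

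In Lrig1 ablation the inhibitor Spink5 and the proteases Klk8 and Klk11 fell relative to Lrig1 control. They were 3 of the 9 tested members, and 0 rose. The Lrig1 control libraries are the same ones as in the comparison of controls. Over all tested genes 4.06% passed in either direction and 3.30% were lower. The median log2 difference of the members was -1.69, beside -0.017 over all tested genes. Both Lrig1 ablation libraries lay below both Lrig1 control libraries in 8 of 9 members, which 26.4% of all tested genes did, and Klk9 was the exception.

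Spink5 had 684 and 2225 normalised read counts in Lrig1 ablation, against 5315 and 5565 in Lrig1 control. It fell by 2.14 on the log2 scale (SE 0.45, limma adjusted p = 0.0421). The ablation libraries differed widely from each other, and the effect was -2.99 without Lrig1 ablation 2 and -1.29 without Lrig1 ablation 1. Its call was lost in edgeR (adjusted p = 0.0680) and without the filter on low values (limma adjusted p = 0.0539). Klk8 had 71.0 and 115 in Lrig1 ablation, against 288 and 297 in Lrig1 control, a log2 difference of -1.69 ± 0.30 (limma adjusted p = 0.0249). Klk11, a trypsin-like kallikrein, had 82.5 and 145 in Lrig1 ablation, against 293 and 254 in Lrig1 control, a log2 difference of -1.31 ± 0.26 (limma adjusted p = 0.0332). For all of these genes both ablation libraries were below both controls.

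The proteases with the largest fitted differences did not pass, and the ablation libraries of each were unlike. Klk7 had 89.6 and 663 in Lrig1 ablation, against 2019 and 2072 in Lrig1 control (log2 difference -3.06 ± 0.86, limma adjusted p = 0.0942). Klk5 had 31.9 and 66.1 in Lrig1 ablation, against 312 and 292 in Lrig1 control (-2.69 ± 0.89, limma adjusted p = 0.144). Klk6 had 10.7 and 29.5 in Lrig1 ablation, against 111 in each Lrig1 control library (-2.57 ± 0.70, limma adjusted p = 0.0860). In each of the 3 the second ablation library was the higher of its pair and still well below the controls.

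Klk10 and Klk13 had smaller differences. Klk10 had 195 and 199 in Lrig1 ablation, against 369 and 269 in Lrig1 control (-0.67 ± 0.29, limma adjusted p = 0.249). Klk13 had 29.3 and 27.1 in Lrig1 ablation, against 68.7 and 55.0 in Lrig1 control (-1.10 ± 0.54, limma adjusted p = 0.306). Neither passed, although the groups did not overlap. Klk9 had 24.8 and 23.1 in Lrig1 ablation, against 23.3 and 24.0 in Lrig1 control (0.02 ± 0.34, limma adjusted p = 0.983), with the ablation values on either side of the controls. Its 95% confidence interval ran from -0.76 to 0.80.

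The calls of Klk8, Klk11 and Spink5 held when any 1 ablation library was left out, Klk6 and Klk7 joined them without Lrig1 ablation 2, and Klk5 without either K14 ablation library. All 3 were lost when only the Lrig1 libraries were fitted (limma adjusted p = 0.0659 for Klk8, 0.123 for Klk11 and 0.125 for Spink5), a fit in which Klk5 alone passed. They were also lost whenever 1 of the 4 control libraries was left out. For Klk8, Klk11 and Spink5 in that order, the limma adjusted p was 0.0706, 0.0935 and 0.0986 without K14 control 1, 0.0705, 0.0937 and 0.0985 without K14 control 2, 0.203, 0.262 and 0.249 without Lrig1 control 1, and 0.234, 0.227 and 0.291 without Lrig1 control 2. Markers of differentiated keratinocytes moved the same way: the 9 tested spinous and granular markers summed to 33588 and 32889 in Lrig1 ablation, against 104954 and 118959 in Lrig1 control, and 6 of 9 fell (Hrnr, Sbsn, Krt10, Krtdap, Flg2 and Lor), with Flg2 at 0 and 0.796 in Lrig1 ablation, against 37.3 and 40.9 in Lrig1 control. Upper hair follicle markers summed to 17604 and 36722 in Lrig1 ablation, against 67239 and 70518 in Lrig1 control, where 1 of 6 fell (Krt17) and 1 rose (Lgr6). Endothelial markers summed to 49.7 and 123 in Lrig1 ablation, against 541 and 624 in Lrig1 control, and 3 of 4 fell (Cdh5, Vwf and Kdr). Inner root sheath and hair markers summed to 323 and 448 in Lrig1 ablation, against 957 and 1260 in Lrig1 control, and 2 of 7 fell (Krt31 and Krt81). Immune markers summed to 80.8 and 90.0 in Lrig1 ablation, against 504 and 640 in Lrig1 control, and 0 of 4 passed. Basal keratinocyte markers summed to 209178 and 90747 in Lrig1 ablation, against 107216 and 116747 in Lrig1 control, and 0 of 7 passed. Sums of sebaceous gland and fibroblast markers also overlapped, with 0 of 5 tested passing in each. Over all tested genes 3.30% fell. Flg2 and Krt81 met the filter only in the Lrig1 control libraries, so their fall follows in part from that selection. The part of these markers in the kallikrein and Spink5 results was not tested.

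In the K14 libraries no member passed between ablation and control, where 0.187% of all tested genes did. The count was 0 of 9 in limma and in edgeR and 1 in DESeq2 (Klk13), and 3 members had an unadjusted limma p under 0.05. Over the 8 members other than Klk6, which had too few reads in these libraries, the median log2 difference was -0.24, beside -0.0018 over all tested genes. With Klk6 the median was Klk6's own fitted value and also rounded to -0.24. In 5 of 9 the groups did not overlap, 2 higher and 3 lower in ablation, as in 53.0% of all tested genes.

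The 3 members with the smallest p went different ways. Klk5 had 2.12 and 30.0 normalised read counts in K14 ablation, against 39.6 and 46.3 in K14 control (log2 difference -2.15 ± 0.89, limma adjusted p = 0.369). Klk10 had 292 and 158 in K14 ablation, against 111 and 96.5 in K14 control (1.05 ± 0.29, limma adjusted p = 0.231). Klk13 had 160 and 44.0 in K14 ablation, against 30.5 and 21.7 in K14 control (1.67 ± 0.54, limma adjusted p = 0.279). In all of them K14 ablation 1 was the farther from the controls, with Klk5 at 3 reads there. Without K14 ablation 2 the log2 differences were -3.81, 1.49 and 2.59 for Klk5, Klk10 and Klk13 and all 3 passed (limma adjusted p = 0.0128, 0.0382 and 0.0226). Without K14 ablation 1 they were -0.50, 0.60 and 0.75 and none passed.

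The other members were closer between K14 ablation and K14 control. Spink5 had 171 and 217 in K14 ablation, against 337 and 286 in K14 control (log2 difference -0.69 ± 0.45, limma adjusted p = 0.556), and its groups did not overlap. Klk7 had 11.3 and 41.8 in K14 ablation, against 43.7 and 34.5 in K14 control (-0.79 ± 0.86, limma adjusted p = 0.732), and the difference was 0.11 without K14 ablation 1. Klk8 had 67.2 and 107 in K14 ablation, against 126 and 100.4 in K14 control (-0.40 ± 0.30, limma adjusted p = 0.615). For Klk7 and Klk8 the second ablation library fell between the controls. Klk11 had 192 and 204 in K14 ablation, against 209 in each K14 control library (-0.08 ± 0.26, limma adjusted p = 0.922). Klk9 had 21.9 and 34.3 in K14 ablation, against 25.4 and 28.6 in K14 control (0.03 ± 0.34, limma adjusted p = 0.983). Klk6 rested on 1 and 3 reads in K14 ablation, against 4 reads and 1 read in K14 control, and its fitted difference is not read as a change.

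The K14 ablation libraries also differed from each other in markers of other cells. Summed sebaceous gland markers were 3093 and 16046 in K14 ablation, against 12079 and 12131 in K14 control. Summed immune markers were 199.5 and 998 in K14 ablation, against 187 and 291 in K14 control. Cd74 made most of that sum (144 and 944 in K14 ablation), while Ptprc was at 35.4 and 19.3 and Cd207 at 5.66 and 5.36 in K14 ablation. Summed upper hair follicle markers were 7145 and 14501 in K14 ablation, against 5215 and 5317 in K14 control, with 1 of 6 higher (Krt17). None of the sebaceous or immune markers passed the test. Summed spinous and granular markers were 79132 and 54211 in K14 ablation, against 68670 and 63951 in K14 control, with overlap, and 0 of 9 passed. Of their log2 differences 8 were negative and 1 positive, with a median of -0.60, beside -0.0018 over all tested genes. The part of all these markers in the values and spread of the members was not tested.

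**Figure D2:**
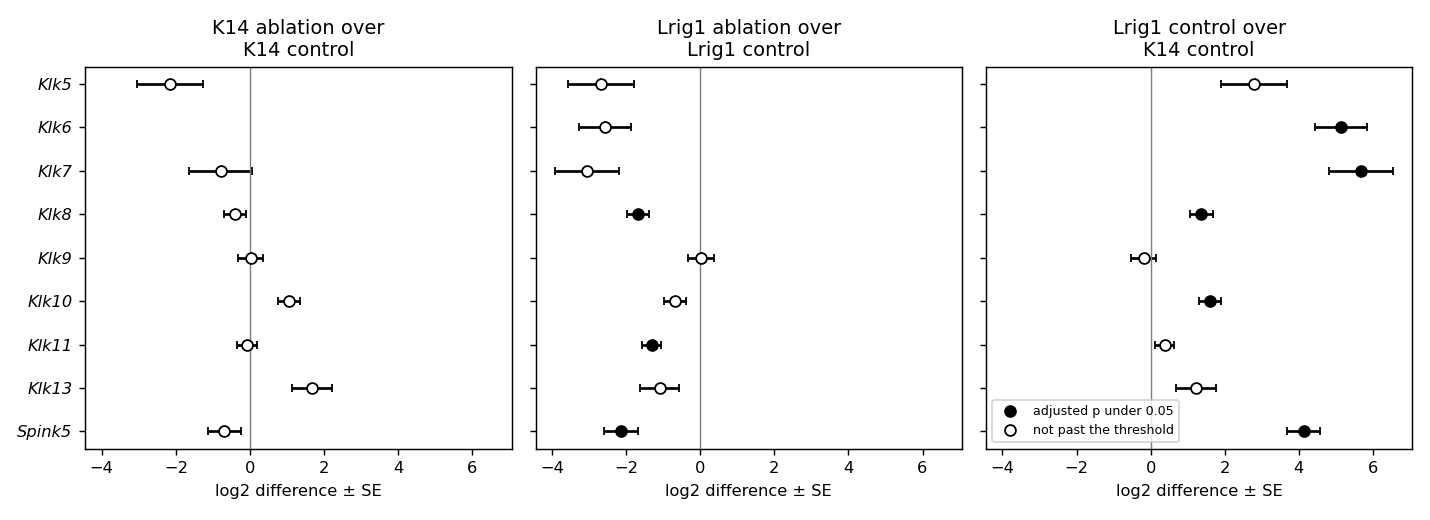
Log2 difference (horizontal axis, limma on log2 of the normalised read count plus 1, bars ± SE) of the 9 tested genes in K14 ablation over K14 control, Lrig1 ablation over Lrig1 control and Lrig1 control over K14 control. Filled points passed an adjusted p of 0.05: none, 3 and 5. Klk6 is left out of the first panel, where it rests on 1 to 4 reads a library.

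The difference between the ablation effects was tested directly. The Lrig1 effect minus the K14 effect was negative in all 9 members, except that Klk9 (-0.0078) turned to 0.023 with TMM scaling and 0.0077 in edgeR. The median was -1.45, beside -0.033 over all tested genes. Klk5 stood at -0.53 ± 1.26 and, without K14 ablation 2, at 1.12. None of the 9 passed in limma, where 0.198% of all tested genes did, none in edgeR and 2 in DESeq2 (Klk10 and Klk13), and 5 had an unadjusted limma p under 0.05. The difference was -2.77 ± 0.76 for Klk13 (limma adjusted p = 0.168), -1.72 ± 0.42 for Klk10 (0.128), -1.23 ± 0.36 for Klk11 (0.193) and -1.28 ± 0.43 for Klk8 (0.234). Spink5 differed by -1.45 ± 0.64 (limma adjusted p = 0.338) and Klk7 by -2.27 ± 1.22 (0.426). So the pass of Klk8, Klk11 and Spink5 in Lrig1 ablation, and not in K14 ablation, does not show that these effects differ.

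Between the ablation libraries of the populations only Spink5 passed, where 0.667% of all tested genes did and 0.463% were higher in Lrig1 ablation. Its 684 and 2225 in Lrig1 ablation stood above 171 and 217 in K14 ablation, a log2 difference of 2.68 ± 0.45 (limma adjusted p = 0.04997, just under the threshold). That call passed only without either Lrig1 ablation library among the fits that left out a library, with an adjusted p of 0.000399 without Lrig1 ablation 1 and 0.0271 without Lrig1 ablation 2. Klk7 differed by 3.42 ± 0.86 (limma adjusted p = 0.132) and Klk5 by 2.26 ± 0.89 (0.269). Klk6 had 10.7 and 29.5 in Lrig1 ablation, against 1 and 3 reads in K14 ablation. Its fitted difference moved with the pseudocount and tool: it was 2.81 ± 0.70 in limma (adjusted p = 0.132), 1.76 with a pseudocount of 5 (0.131) and 3.53 in DESeq2 (0.00914). Klk11 and Klk13 lay the other way, at -0.85 ± 0.26 and -1.54 ± 0.54 (0.184 and 0.230). The groups did not overlap in 6 of 9 members, 4 higher and 2 lower in Lrig1 ablation, as in 39.0% of all tested genes.

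Levels were compared between genes per kb of exon. In Lrig1 control Spink5 led with a mean level of 1137 per kb and Klk7 followed with 1079, both far above Klk10 (232), Klk5 (226), Klk8 (190), Klk11 (186), Klk6 (73.3), Klk13 (26.9), Klk9 (16.0) and Klk14 (0.555). The ranges of Klk10 and Klk5 overlapped, as did those of Klk8 and Klk11. In K14 control the order was led by Klk11 (142), then Klk10 (75.5), Klk8 (73.5) and Spink5 (65.1), whose ranges overlapped in turn, and by Klk5 (32.1), Klk7 (20.6), Klk9 (18.3), Klk13 (11.3), Klk6 (1.67) and Klk14 (0.787). In K14 ablation Klk10 (164) and Klk11 (135) led with overlapping ranges, ahead of Klk8 (56.6), Klk13 (44.4) and Spink5 (40.4). In Lrig1 ablation Spink5 (304), Klk7 (199) and Klk10 (144) headed the list, with overlap between neighbours.

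The kallikrein mixture varied between libraries. Klk7 made up 13.4% and 45.7% of the summed kallikrein level per kb in Lrig1 ablation, against 51.4% and 55.0% in Lrig1 control, and 1.24% and 5.35% in K14 ablation, against 5.88% and 5.04% in K14 control. Klk10 made up 40.4% and 18.9% in Lrig1 ablation, against 13.0% and 9.86% in Lrig1 control, and 44.2% and 27.8% in K14 ablation, against 20.6% and 19.5% in K14 control. The share of Klk10 was thus higher in both ablation libraries of each population than in its controls. Klk13 reached 14.5% and 4.64% in K14 ablation, against 3.39% and 2.61% in K14 control. These shares sum to 100% in a library, so a lower share of 1 gene raises the others.

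**Figure D3:**
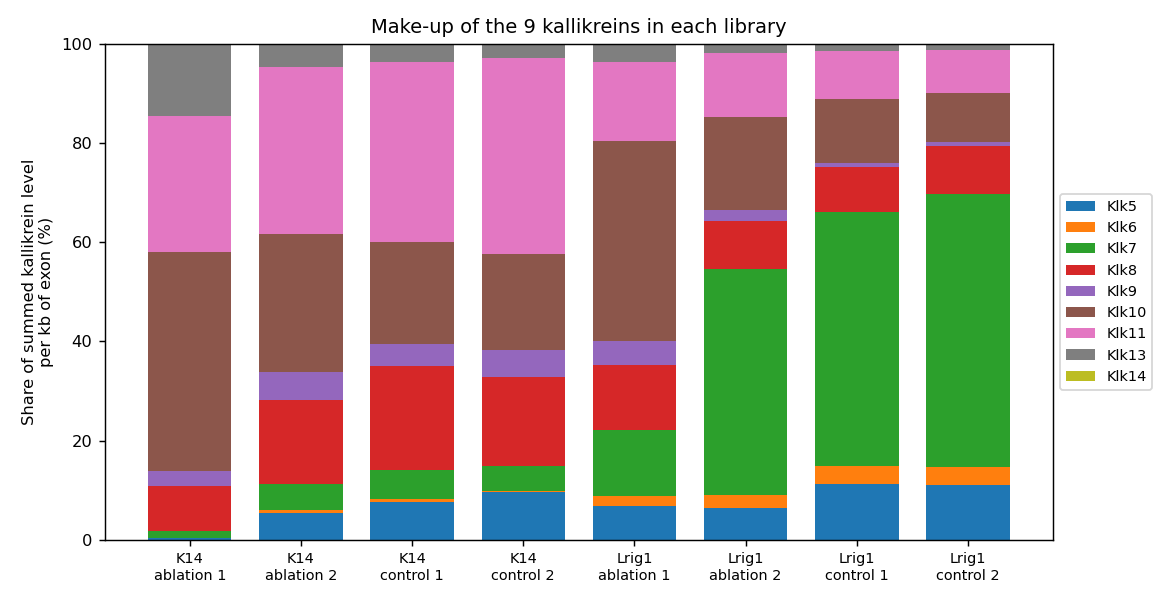
Share of each of the 9 kallikreins in their summed level per kb of exon (vertical axis, percent) in the 8 libraries, 1 bar a library. Klk7 fills 51.4% and 55.0% of the Lrig1 control bars and 1.24% to 5.88% of the K14 bars.

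Spink5 was set over the summed kallikreins, both per kb, a ratio within a library that its size factor does not touch. The ratio was 0.0742 and 0.1098 in K14 ablation, against 0.180 and 0.165 in K14 control, so both ablation libraries were lower. It was 0.406 and 0.607 in Lrig1 ablation, against 0.536 and 0.585 in Lrig1 control, where the groups overlapped. Against Klk5 alone the ratio was 5.98 and 9.40 in Lrig1 ablation, against 4.76 and 5.33 in Lrig1 control, and against Klk7 alone 3.02 and 1.33 in Lrig1 ablation, against 1.04 and 1.06 in Lrig1 control, so both ablation libraries were higher for either enzyme. In K14 ablation Spink5 over Klk5 was 22.4, on 3 reads of Klk5, and 2.01, against 2.38 and 1.72 in K14 control, and Spink5 over Klk7 was 5.97 and 2.05, against 3.06 and 3.28, with overlap in both. The denominator of the first ratio, the summed kallikrein level per kb, was 480 and 412 in K14 ablation, against 391.7 and 361 in K14 control, and 352 and 766 in Lrig1 ablation, against 2073 and 1989 in Lrig1 control. In K14 ablation Klk10 made up 44.2% and 27.8% of that level and Klk11 27.3% and 33.7%. Klk5 made up 0.331% and 5.45% of it there, and Klk7 1.24% and 5.35%. The first ratio is therefore not read as a balance of the inhibitor with Klk5 or Klk7. The ratio concerns transcripts and carries no test.

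**Figure D4:**
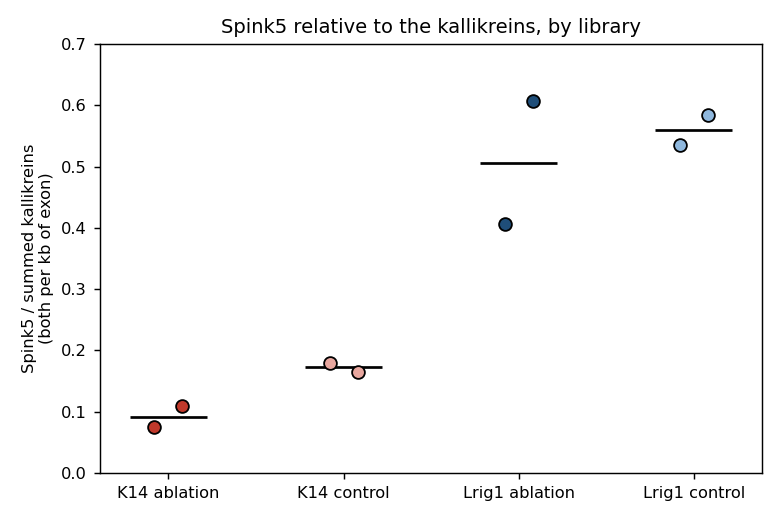
Spink5 divided by the summed level of the 9 kallikreins, both per kb of exon (vertical axis), in K14 ablation, K14 control, Lrig1 ablation and Lrig1 control. Points are libraries and lines group means. K14 ablation sits at 0.0742 and 0.1098, under its controls, and the Lrig1 groups overlap.

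As a description over the 8 libraries, which fall into 4 groups, Pearson's r of log2(value + 1) was 0.99 between Klk7 and Spink5, 0.98 between Klk6 and Klk7, and 0.89 between Klk5 and Klk7. It was 0.74 between Klk10 and Klk13 and -0.02 between Klk13 and Spink5. Klk9 had r between -0.59 and 0.05 with every other tested member. Outside the members, the genes most like Klk5 were Aldh1a7, Rab11fip4, Sccpdh, Pik3r1 and Irak3 (r 0.978 to 0.990), and 180 tested genes had r above 0.9. Those most like Klk7 were Myo5b, Tspan33, Sprr4, Fam84a and Slc46a2 (0.995 to 0.999), among 576 above 0.9. For Spink5 they were Ephx4, Cldn1, Pfn2, Myo5b and Gpr155 (0.989 to 0.995), among 578.

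The substrates cut by these proteases were mostly lower in Lrig1 ablation as well. Of 7 tested desquamation substrates, 6 fell and 0 rose, where 3.30% of all tested genes fell. Their median log2 difference was -2.60. Flg and Flg2 also belong to the spinous and granular markers. Listed genes outside the members were not followed in the alternative fits. With only the 4 Lrig1 libraries fitted, 165 of 17273 tested genes fell, against 598 of 18140 with all 8 libraries. Cdsn, the corneodesmosin cut by KLK5 and KLK7, had 57.7 and 185 in Lrig1 ablation, against 686 and 650 in Lrig1 control (-2.68 ± 0.47, limma adjusted p = 0.0232). The desmosomal cadherin genes Dsc1 (-2.60 ± 0.34), Dsg1a (-1.95 ± 0.21), Dsg1b (-1.62 ± 0.26) and Dsg1c (-1.52 ± 0.22) fell too, with limma adjusted p of 0.00852, 0.00413, 0.0180 and 0.0126. Flg2, a filaggrin relative, had 0 and 0.796 in Lrig1 ablation, against 37.3 and 40.9 in Lrig1 control. It met the filter only in the Lrig1 control libraries, so its fall follows in part from that selection. In K14 ablation 0 of 7 passed and the median was -0.57, and Cdsn had 19.8 and 24.7 in K14 ablation, against 18.3 and 21.7 in K14 control. Between the controls 4 of 7 were higher in Lrig1 (Cdsn, Flg2, Dsc1 and Flg), where 6.52% of all tested genes were. The same selection bears on Flg2 there, and also on Flg, which met the filter only in Lrig1 libraries.

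Among 8 tested proteases that act beside the kallikreins, 3 fell in Lrig1 ablation and 0 rose (median -0.82). The share of all tested genes that fell was 3.30%. Casp14, the caspase that processes filaggrin, had 172 and 168 in Lrig1 ablation, against 664 and 605 in Lrig1 control (-1.89 ± 0.19, limma adjusted p = 0.00342). The membrane serine protease gene Tmprss11e had 8.88 and 14.3 in Lrig1 ablation, against 66.4 and 86.0 in Lrig1 control (-2.64 ± 0.46, 0.0227). Ctsd, the lysosomal protease cathepsin D, differed by -0.84 ± 0.16 (0.0276). In K14 ablation 0 of 8 passed (median 0.32). St14, the gene of matriptase, which activates kallikrein precursors, had 487 and 494 in K14 ablation, against 312 and 335 in K14 control, without passing. Between the controls 5 of 8 were higher in Lrig1 (Tmprss11e, Ctsd, St14, Casp14 and Prss8), where 6.52% of all tested genes were.

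Of 11 other tested protease inhibitors, 2 fell in Lrig1 ablation and 0 rose (median -1.06), where 3.30% of all tested genes fell. Spint1, the inhibitor of matriptase, had 305 and 373 in Lrig1 ablation, against 707 and 709 in Lrig1 control (-1.07 ± 0.17, limma adjusted p = 0.0158). Serpina12, whose product vaspin inhibits KLK7, had 1.77 and 0 in Lrig1 ablation, against 46.6 and 76.1 in Lrig1 control. In K14 ablation 0 of 11 passed (median 0.13), and Serpina12 had 0.708 and 0 in K14 ablation, against 9.14 and 4.92 in K14 control. Between the controls 4 of 11 were higher in Lrig1 (Spint1, Cst6, Wfdc5 and Serpina12), where 6.52% of all tested genes were. Wfdc5 met the filter only in the Lrig1 control libraries and Serpina12 only in control libraries. So Spink5 was not the only inhibitor gene that fell in the Lrig1 ablation libraries.

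Downstream of kallikreins lie the protease-activated receptor 2, encoded by F2rl1, and the cytokine TSLP, which keratinocytes release when KLK5 cuts that receptor. Of 5 tested receptor and cytokine genes, 1 fell in Lrig1 ablation and 0 rose (median -0.34), where 3.30% of all tested genes fell. It was Il1b, an inflammatory cytokine gene, with 5.33 and 10.3 in Lrig1 ablation, against 44.2 and 42.3 in Lrig1 control (-2.38 ± 0.46, limma adjusted p = 0.0321). F2rl1 lay between 352 and 572 in all 8 libraries and did not pass in either ablation. In K14 ablation 0 of 5 passed. Tslp had 81.4 and 40.7 in K14 ablation, against 24.4 and 17.7 in K14 control (1.43 ± 0.44, limma adjusted p = 0.270). It had 11.5 and 9.55 in Lrig1 ablation, against 7.0 and 5.64 in Lrig1 control (0.66 ± 0.44, limma adjusted p = 0.457). Both ablation libraries lay above both controls in each population, as did 4965 of 18140 tested genes in K14 ablation and 3889 in Lrig1 ablation.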

How the data were processed

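Sorted epithelial cells of mouse skin epidermis were profiled by bulk RNA sequencing in 8 libraries, 2 a group. Per the labels' protocols, RNA came from the RNeasy Micro kit and libraries from the Ovation Solo system. Per the submitters' processing notes, Trimmomatic, STAR, Picard and HTSeq 0.11.1 were used on GRCm38 (mm10). The sources used here do not state the annotation release, strand setting or program for size factors. The authors deposited a normalised signal per gene, read counts divided by a size factor: 100% of values were whole multiples of 1 read within a tolerance of 0.1. Of the columns, 4 are named in other words than the labels and were matched to the ablation libraries because no other group was left, with 1.1 read as replicate 1.

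Tests used limma 3.58.1 (R 4.3.3) with a variance trend on log2(value + 1), in 1 fit of the 4 group means (4 residual and 4.13 prior degrees of freedom), for the 18140 genes that reached 1e-06 of a library's total in 2 or more libraries. The pseudocount understates changes of low genes. Benjamini-Hochberg adjustment ran over all of these genes, with a threshold of 0.05. Replicates of all 4 groups differed by more than sampling noise and were counted as 2. On the recovered reads, edgeR 4.0.16 called 32 genes in K14 ablation, 588 in Lrig1 ablation and 1396 between controls, against 34, 737 and 1594 in limma, and DESeq2 1.42.0 was an alternative. The limma step was also run on simulated data. The recovery required of it was set only for a low spread, so this does not show its power for the unlike ablation pairs. Exon lengths came from GENCODE M21 on GRCm38, which matched 32427 of the deposited gene identifiers, and promoters from RefSeq.

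The members and lists were chosen with earlier results of these data known. All members are named, as are listed genes past the threshold in an ablation comparison, at most 8 a list by smallest adjusted p, and the 5 genes most like Klk5, Klk7 and Spink5. Genes outside this rule (Cst6, Wfdc5, St14, Prss8, Flg, Krt1, F2rl1, Tslp, Cd74, Ptprc and Cd207) were named after their values were seen. Klk4 and A2ml1 were not analysed here, and loricrin was read under its symbol Lor.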

Additional observations from a re-analysis of the deposited data

Results flagged for a closer look

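Klk10 and Klk13 stood on opposite sides of their controls in the ablations. Both K14 ablation libraries lay above both K14 control libraries, and both Lrig1 ablation libraries lay below both Lrig1 control libraries. Of all 18140 tested genes, 4965 lay wholly higher in K14 ablation and 4791 wholly lower in Lrig1 ablation. The genes with both patterns were not counted, so this order is not read as particular to Klk10 and Klk13. The Lrig1 effect minus the K14 effect was -1.72 for Klk10 (unadjusted p = 0.0031, limma adjusted p = 0.128) and -2.77 for Klk13 (unadjusted p = 0.0064, limma adjusted p = 0.168). The opposite order of the groups drew attention to them, while the direct test of the difference did not pass for either. Groups of 2 libraries are too small to single out an outlying library within a group.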

How the results depend on the processing

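No member that passed changed sign under any alternative run. Over the members, comparisons and alternatives, 695 differences kept their sign and side of the threshold, 38 passed where they had not, 44 no longer passed and 18 that had not passed changed sign. With all libraries kept, Klk9 alone changed sign: its difference between ablation effects was -0.0078, but 0.023 with TMM scaling and 0.0077 in edgeR. Leaving out 1 library changed the sign of some differences. Klk9 ran from -0.28 to 0.34 in K14 ablation, -0.032 to 0.070 in Lrig1 ablation, -0.32 to 0.30 for the difference and -0.50 to 0.12 between ablations. Klk6, on 1 to 4 reads, ran from -0.92 to 0.43 and Klk7 from -1.69 to 0.11 in K14 ablation, Klk5 from -2.19 to 1.12 for the difference, and Klk8 from -0.25 to 0.43 and Klk10 from -0.56 to 0.32 between ablations. Klk14 was tested only without a filter. Of the 9 tested members, 3 passed in Lrig1 ablation, and 1 (Klk5) when only the 4 libraries compared were fitted. Between Lrig1 and K14 controls 5 passed, but 8 with array weights and 8 with only the 4 libraries compared. Between Lrig1 and K14 ablation 1 passed, but 0 with a pseudocount of 0.5, without a filter, with a stricter filter or with only the 4 libraries compared, and 4 in DESeq2. In K14 ablation 0 passed, but 1 in DESeq2, and of the differences between ablation effects 0 passed, but 2 in DESeq2. Leaving out 1 library gave 0 to 3 members in K14 ablation, 0 to 5 in Lrig1 ablation, 0 to 2 for the difference, 0 to 7 between controls and 0 to 3 between ablations. The causes were not tested.

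With the replicate number as a block, the members called were 0, 3, 0, 5 and 1 in K14 ablation, Lrig1 ablation, their difference, between controls and between ablations, as without it, and the calls over all genes were 21, 504, 1, 1325 and 119, against 34, 737, 36, 1594 and 121. The labels give no pairing, and same-numbered libraries deviated together little (correlations -0.011 to 0.084). Over all genes DESeq2 called 221, 997, 303, 1619 and 666. Leaving out 1 library gave 0 to 740, 5 to 2498, 0 to 2022, 1 to 3539 and 0 to 4041 genes. With only the 4 libraries compared, 0 genes passed in K14 ablation, 170 in Lrig1 ablation, 7323 between controls and 0 between ablations, and with array weights 477, 451, 6747 and 31, with 146 for the difference. The difference called 83 genes with a pseudocount of 5, 5 without a filter and 13 with a stricter one, and ablations differed in 75 without a filter. Depth limited Klk6 in the K14 libraries, at 1 to 4 reads each, and Klk14 in all libraries, at 0 to 3.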
